A study of Mus musculus with 4 samples.

Results

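Spp1 and Mfge8 encode secreted proteins that bind integrins, and this account follows both across 4 mouse liver libraries beside 5 other secreted integrin ligands, Fn1, Vtn, Tnc, Thbs1 and Edil3. The 7 genes were found by symbol among 56953 gene rows. Spp1 and Mfge8 were chosen by their counts, which were much higher in the deletion libraries, so their values in that comparison are a description and carry no test. The other 5 were set beside them as ligands of the same kind. All 7 had a row, 6 passed the filter on low counts, and Edil3 did not.

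All animals carried loxP-flanked Ubc13 alleles (Ubc13 flox/flox) and were 2 months old, fed a normal diet. The control group held 2 libraries without albumin-Cre, labelled Alb negative and WT. The deletion group held 2 libraries with it, labelled Alb positive. Albumin-Cre removes flanked DNA in cells that use the albumin promoter, which are mainly hepatocytes. How far other liver cells, such as bile duct cells, kept the gene is not shown by these libraries. Ubc13 is the protein of Ube2n and builds K63-linked ubiquitin chains. The question in the series title is how its loss bears on fatty liver disease.

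Integrins are paired alpha and beta chains that tie cells to the proteins around them. Many of their ligands carry the tripeptide arginine-glycine-aspartate (RGD), which the integrins with the chain Itgav and some others hold. In liver, the plasma proteins vitronectin (Vtn) and fibronectin (Fn1) come from hepatocytes. Osteopontin (Spp1) is known from bile duct cells, activated stellate cells and macrophages. Mfge8, also called lactadherin, links phosphatidylserine on dying cells to integrins of phagocytes, and Edil3 is its closest relative. Tenascin C (Tnc) and thrombospondin 1 (Thbs1) are matricellular proteins of injury and repair.

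The RGD site is what ties these ligands together at the level of sequence, and its codons are shown here for each member that has them. They were read in frame from the longest complete coding transcript of GENCODE M21 (GRCm38), with the RGD codons in capitals, 9 coding bases before them and 27 after. Spp1 has 1 site, at codon 145 of 295 in exon 7 of 8 (chr5:104439481-104439489, plus strand). Mfge8 has 1, at codon 87 of 463 in exon 3 of 10 (chr7:79145308-79145316, minus strand). Fn1 has 2, at codons 1614 (chr1:71606746-71606754) and 2181 (chr1:71597443-71597451) of 2477. Vtn has 1 at codon 64 of 478 (chr11:78499706-78499714), Thbs1 1 at codon 927 of 1171 (chr2:118122882-118122890) and Edil3 1 at codon 96 of 480 (chr13:89042491-89042499). The longest coding transcript of Tnc, with 2110 codons, has 0 in-frame RGD sites.
Spp1: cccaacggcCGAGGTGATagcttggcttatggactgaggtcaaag
Mfge8: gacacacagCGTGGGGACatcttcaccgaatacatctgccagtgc
Fn1, codon 1614: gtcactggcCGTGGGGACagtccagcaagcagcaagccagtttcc
Fn1, codon 2181: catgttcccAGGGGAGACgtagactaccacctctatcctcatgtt
Vtn: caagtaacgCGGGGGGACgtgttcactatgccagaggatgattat
Thbs1: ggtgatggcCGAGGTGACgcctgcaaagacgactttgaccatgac
Edil3: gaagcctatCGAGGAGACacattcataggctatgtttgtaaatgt

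Directly after its RGD codons, Spp1 alone among the 7 encodes the site that thrombin exposes for the integrins with Itga4 and Itga9. No other member's RGD codons were followed by the letters of that site. In Mfge8 and Edil3 the RGD lies early in the chain, at codons 87 and 96, ahead of the discoidin domains that hold phosphatidylserine.

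Library totals ran from 16270424 to 17800138 counts. Ube2n, the targeted gene, had 669 and 654 counts in control against 107 and 116 in deletion libraries, and its log2 fold change was -2.86 ± 0.16 (SE, n = 2 and 2, edgeR adjusted p = 0.00188). It did not pass when the male RNA share was a covariate (edgeR adjusted p = 0.0643). The libraries also differ in sex-linked transcripts. Xist had 9 and 2 counts in the controls and 9590 and 3896 in deletion replicates 1 and 2, and 4 Y-linked genes had 0 counts in deletion replicate 1 and 206 to 719 in deletion replicate 2. Deletion replicate 2 thus held transcripts of both kinds, with Y-linked genes at 0.613 times the control mean, as RNA of both sexes would; whether it pools animals is not stated. Sex and genotype therefore cannot be told apart in the comparison of the groups. Albumin took 10.8% and 10.3% of control counts and 4.87% of the counts of each deletion library. At an adjusted p under 0.05, edgeR called 6.57% of 14600 tested genes, which were 4.41% higher and 2.16% lower in the deletion libraries. DESeq2 called 6.80% higher and 4.48% lower, and an unadjusted edgeR p under 0.05 was found for 14.0% higher and 10.5% lower. That is 959 genes, or 1700 and 2081 without control replicates 1 and 2 and 499 and 343 without deletion replicates 1 and 2. Of the called genes 67.2% were higher, or 88.5% with library sizes alone as scaling, which moved the median of all genes by 0.29 on the log2 scale. Both deletion libraries lay above both controls for 28.7% of tested genes and below both for 27.3%. The labels do not say whether replicates came from separate mice. The sex-linked counts show that the deletion libraries are not repeats of one RNA sample. The controls differed too, with Krt19 at 635 and 47 counts in control replicates 1 and 2. Whether the spread between the controls is one between mice was not tested.

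The labels give the source as liver, but their library protocol speaks of primary hepatocytes, so whether the RNA is that of whole liver or of isolated hepatocytes is not settled. In bulk libraries of either kind, fewer or more cells of a type and less or more RNA per cell cannot be told apart.

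Spp1 stood far below the plasma ligands Fn1 and Vtn in control liver and came close to them in the deletion libraries. Control replicates 1 and 2 gave 817 and 764 Spp1 counts, deletion replicates 1 and 2 gave 24143 and 37227. As CPM, which here are counts relative to the TMM-scaled library size, these were 50.4 and 52.5 against 1327 and 1916. The control libraries lay close together, and both deletion libraries were far above them, with deletion replicate 2 the higher by 1.44 times. The log2 fold change was 4.98 ± 0.26 (SE, n = 2 and 2), or 31.5-fold, and the ratio of a single deletion library to a single control ran from 25.3 to 38.0. Ranked by counts among all genes, Spp1 went from position 2816 and 2714 in the controls to 76 and 43. The gene (ENSMUSG00000029304) lies at chr5:104435118-104441050 on the plus strand.

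Mfge8 showed the same shape at a lower level. It had 337 and 322 counts in control against 7566 and 11651 in deletion libraries, which is 20.8 and 22.1 CPM against 416 and 600 CPM. Again the groups were far apart and deletion replicate 2 was 1.44 times deletion replicate 1. The log2 fold change was 4.56 ± 0.25 (SE, n = 2 and 2), or 23.7-fold, with single-library ratios from 18.8 to 28.8. Its rank by counts went from 5701 and 5513 to 278 and 153. The gene (ENSMUSG00000030605) lies at chr7:79133768-79149060 on the minus strand. Among 1413 genes with a deletion mean of at least 100 CPM, Spp1 had the log2 fold change ranked 5 and Mfge8 the one ranked 7; these are the values that chose the genes.

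**Figure D1:**
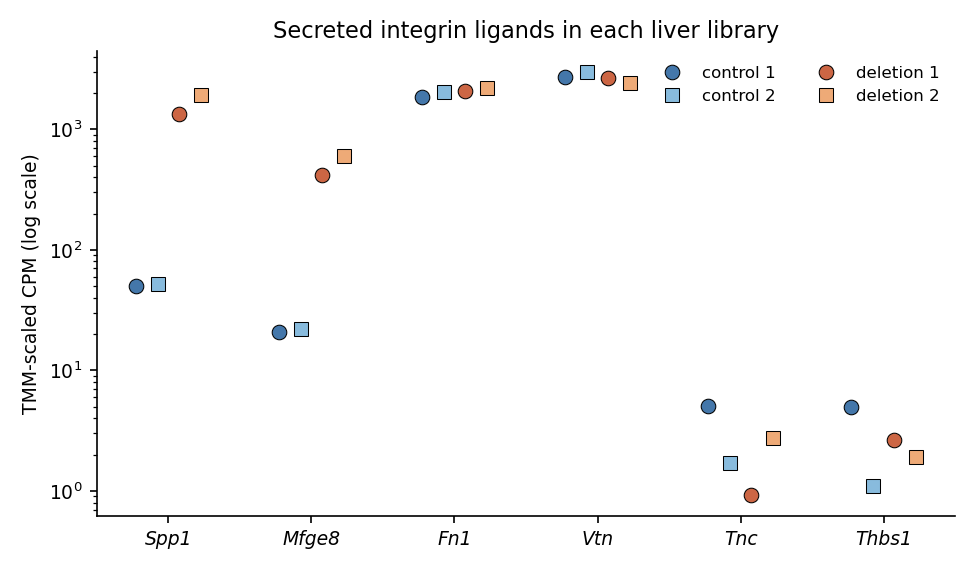
TMM-scaled CPM on a log axis for 6 ligands, 1 point per library (circles are replicate 1, squares replicate 2, blue control, orange deletion). Spp1 and Mfge8 lie far higher in both deletion libraries, Fn1 and Vtn lie between 1839 and 2989 CPM in all 4, and Tnc and Thbs1 lie between 0.934 and 5.06 CPM with the groups overlapping. Edil3 is left out because it has 0 counts in 2 libraries.

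The ratio of Spp1 to Mfge8 counts within a library does not depend on scaling. Control replicates 1 and 2 had ratios of 2.42 (exact 95% interval 2.13 to 2.76) and 2.37 (2.08 to 2.71). In deletion replicates 1 and 2 it was 3.19 (3.11 to 3.27) and 3.20 (3.13 to 3.26). The ratio was thus nearly equal within each group and higher in both deletion libraries, where Spp1 had gone up by the larger factor. These intervals cover counting error only.

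Fn1 and Vtn, the hepatocyte-made plasma ligands, did not pass the test. Fn1 had 1839 and 2023 CPM in control against 2061 and 2177 CPM in deletion libraries. The deletion values were both above the control values, by little, and the log2 fold change was 0.13 ± 0.19 (SE, edgeR adjusted p = 0.721). Vtn had 2720 and 2989 CPM in control against 2673 and 2419 CPM in deletion libraries. Both deletion values were below both controls, and the log2 fold change was -0.16 ± 0.20 (SE, edgeR adjusted p = 0.668). With library sizes alone the Vtn value was 0.13, so its sign depends on the scaling. Neither value shows that these genes were unchanged. The Vtn to Fn1 count ratio was 1.48 in each control, 1.30 in deletion replicate 1 and 1.11 in deletion replicate 2.

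Tnc and Thbs1 were scarce and uneven between replicates. Tnc, a ligand of the integrin with Itga9, had 82 and 25 counts in control against 17 and 53 in deletion libraries, or 5.06 and 1.72 against 0.934 and 2.73 CPM. The groups overlapped, and the log2 fold change was -0.89 ± 0.68 (SE, edgeR adjusted p = 0.483). It was 0.09 without control replicate 1. Thbs1, which also binds Cd47 and Cd36 and is abundant in platelets, had 80 and 16 counts in control against 48 and 37 in deletion libraries, or 4.94 and 1.10 against 2.64 and 1.90 CPM. Both deletion values lay between the controls. The log2 fold change was -0.42 ± 0.67 (SE, edgeR adjusted p = 0.757), and 1.04 without control replicate 1. Control replicate 1 was the higher control by 2.95 times for Tnc and 4.49 times for Thbs1. Of 13 duct markers above 3 counts in both controls, 12 were higher in that library than in control replicate 2, and 10 of them by over 2 times. Their median ratio was 3.73, with the keratin Krt19 at 12.1, the mucin Muc1 at 14.3 and the transporter Slc10a2 lowest at 0.337. Of 16 stellate cell and myofibroblast markers 12 were higher there, but the median ratio was 1.25 and only smooth muscle actin (Acta2, 7.04) and desmin (Des, 3.08) passed 2 times. The part of those cells in the Tnc and Thbs1 values was not tested.

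Edil3 had 2 and 0 counts in control against 2 and 0 in deletion libraries, all at or under the floor of 3 counts (0.154 to 0.206 CPM), so no fold is given. The closest relative of Mfge8 was therefore not detectable above this floor in either group. Of the 6 members tested, 2 were called, both higher, and these were the 2 chosen for their rise, so nothing is read from that count beside the 6.57% of all genes. The median log2 fold change of the 6 was -0.015 and that of all tested genes -0.0036.

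A 3' library reads each transcript once, at its end, so CPM follows transcript number without division by length, and the ligands can be put in order. In the controls the order by mean CPM was Vtn (2854 ± 190, SD, n = 2), Fn1 (1931 ± 130), Spp1 (51.4 ± 1.5), Mfge8 (21.5 ± 0.94), Tnc (3.39 ± 2.36) and Thbs1 (3.02 ± 2.71). Tnc and Thbs1 did not differ beyond their spread. In the deletion libraries it was Vtn (2546 ± 180), Fn1 (2119 ± 82), Spp1 (1621 ± 416), Mfge8 (508 ± 130), Thbs1 (2.27 ± 0.52) and Tnc (1.83 ± 1.27). There the gap between Fn1 and Spp1 was close to the SD of Spp1, and Thbs1 and Tnc again did not differ beyond their spread. Fn1 had 36.5 and 38.5 times the counts of Spp1 in the controls, and 1.55 and 1.14 times in deletion replicates 1 and 2.

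As a share of all counts of the 7 ligands, Spp1 made up 1.09% (exact 95% interval 1.01 to 1.16) and 1.03% (0.960 to 1.11) in the controls. It made up 20.5% (20.2 to 20.7) in deletion replicate 1 and 26.9% (26.7 to 27.2) in deletion replicate 2. Mfge8 went from 0.448% and 0.435% to 6.42% and 8.43%. Vtn, the leading ligand in every library, took 58.6% and 58.7% in control against 41.2% and 34.0% in deletion libraries. The ligands together came to 4640 and 5089 CPM in control against 6481 and 7116 CPM in deletion libraries.

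**Figure D2:**
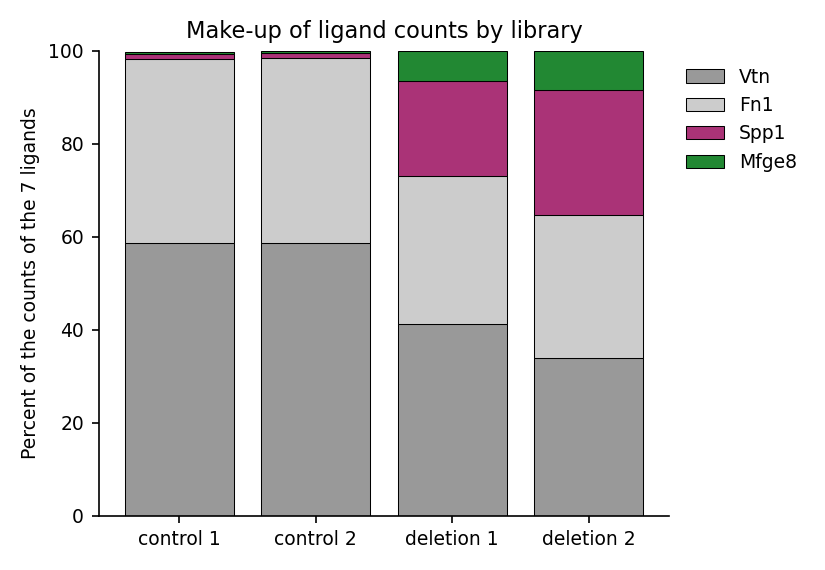
Stacked bars of the percent of the 7 ligands' counts in each library that came from Vtn, Fn1, Spp1 and Mfge8; Tnc, Thbs1 and Edil3 are too few to see. Spp1 takes 1.09% and 1.03% in control against 20.5% and 26.9% in deletion libraries.

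Next, the genes whose pattern over the 4 libraries lay closest to Spp1 and Mfge8 were sought among 13220 others with a mean of at least 1 CPM and more than 3 counts in every library. Likeness was the root mean square difference of log2 CPM, each gene taken relative to its own control mean. With 4 libraries this is a description, and any gene with a rise of the same size comes out near. For Spp1 the order was Pak6, a p21-activated kinase (0.289), Mfge8 (0.292), the fatty acid elongase Elovl7 (0.299), the acute phase gene Lcn2 (0.401) and the pseudogene H2-T-ps (0.407). For Mfge8 it was Elovl7 (0.146), Pak6 (0.186), the endotoxin co-receptor Cd14 (0.209), Spp1 (0.292) and Fam83a (0.302). Spp1 and Mfge8 were thus among the 5 nearest of each other. Elovl7 had 0.925 and 1.03 CPM in control against 17.0 and 32.3 CPM in deletion libraries, far below both ligands.

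The genomic neighbourhoods of both genes were read for the 3 nearest protein-coding genes on either side. Spp1 sits at the end of a cluster of bone and tooth matrix genes that share its ancestry. Of these, Mepe, 96.5 kb away, and Ibsp, 124 kb away, had 0 counts in all 4 libraries, and Dmp1, 221 kb away, had 1 count in all. On the other side, 18.4 kb away, the polycystin gene Pkd2 had 20.0 and 21.3 CPM in control against 31.0 and 38.6 CPM in deletion libraries, which did not pass (log2 fold change 0.75 ± 0.17, edgeR adjusted p = 0.0567). Next to Mfge8, Hapln3, 2.75 kb away, had 0, 0, 2 and 1 counts and Acan, 18.7 kb away, had 0 in all. Abhd2, 124 kb away, did not pass (0.76 ± 0.21, edgeR adjusted p = 0.0952). A transcript that overlaps Spp1 on its strand, Gm42793, had 0, 3, 11 and 3 counts, too few to alter the Spp1 counts.

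For Spp1 and Mfge8, which were both chosen for their rise, the 250 bases before their RefSeq start sites (GRCm38.p6) are shown, with motif matches in capitals. Searched on both strands were TGANTCA (AP-1), GGGNNTTCC (NF-kB), GTGGGAA (RBPJ, the Notch effector) and CCGGAAG (ETS factors); no match of one overlapped a match of another in these windows. The Spp1 window (chr5:104434861-104435110, plus strand) holds 1 ETS match, 234 bases before the start. The Mfge8 window (chr7:79149061-79149310, minus strand) holds 1 RBPJ match, 83 bases before the start.
Spp1 promoter: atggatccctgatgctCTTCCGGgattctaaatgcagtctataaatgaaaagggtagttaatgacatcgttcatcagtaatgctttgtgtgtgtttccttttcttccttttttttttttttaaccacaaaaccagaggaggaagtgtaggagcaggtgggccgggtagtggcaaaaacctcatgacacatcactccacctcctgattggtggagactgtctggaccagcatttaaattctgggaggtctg
Mfge8 promoter: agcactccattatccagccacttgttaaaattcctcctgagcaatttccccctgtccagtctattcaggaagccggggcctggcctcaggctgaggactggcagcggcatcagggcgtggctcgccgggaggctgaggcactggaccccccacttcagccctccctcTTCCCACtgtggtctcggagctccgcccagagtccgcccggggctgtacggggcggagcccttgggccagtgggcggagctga

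Of 32851 windows of the same length, 6.91% hold the ETS letters, 5.42% the RBPJ letters, 6.75% the AP-1 letters and 4.98% the NF-kB letters. The AP-1 and NF-kB letters were in neither window. Only the letters given were searched, so sites of the same factors with another spelling or length were not looked for. The second annotated start of Spp1 (window chr5:104435942-104436191) and the Vtn window hold 0 matches of the 4 motifs, and 1 of the Tnc windows holds 1 RBPJ match. Spp1 and Mfge8 thus share no match of these 4 motifs within 250 bases of their starts.

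The receptors of these ligands had smaller fold changes than Spp1 and Mfge8. Those ligands were chosen for their rise, so nothing is read from this gap. Of 19 receptor genes, 17 were tested, 2 rose and 0 fell by edgeR (DESeq2 gave 4 and 1, and an unadjusted p under 0.05 gave 5 and 1), where edgeR called 4.41% of all genes higher and 2.16% lower, and 14.0% and 10.5% had an unadjusted p under 0.05. The median log2 fold change was 0.34, against -0.0036 over all tested genes. Cd36, a scavenger receptor that binds thrombospondin, had 24.2 and 24.5 CPM in control against 73.3 and 61.9 CPM in deletion libraries and rose by 1.48 ± 0.16 on the log2 scale (edgeR adjusted p = 0.008). Cd44, the receptor for hyaluronan that also binds osteopontin, had 12.8 and 13.2 against 22.4 and 21.1 CPM and rose by 0.74 ± 0.16 (edgeR adjusted p = 0.0471). The Cd44 call was lost without control replicate 1 (0.0626), deletion replicate 1 (0.213) or deletion replicate 2 (0.2), and Cd36 was called with any 1 library left out. The syndecan Sdc4, a heparan sulfate receptor, had 643 and 834 CPM in control against 394 and 428 CPM in deletion libraries and did not pass (-0.85 ± 0.19, edgeR adjusted p = 0.0590). In all, 3 and 4 receptors were called without control replicates 1 and 2, and 1 without either deletion library.

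Among integrin chains, Itgav, the partner shared by most RGD-binding integrins, had 24.5 and 27.8 CPM in control against 41.9 and 39.7 CPM in deletion libraries. The groups did not overlap, but it did not pass (0.64 ± 0.15, edgeR adjusted p = 0.0605); leaving out control replicate 2 (0.0422) or using DESeq2 (0.0444) it passed. On the log2 scale its partner Itgb5 stood at 0.47 ± 0.15 (edgeR adjusted p = 0.134) and Itgb3 at 0.06 ± 0.22 (0.898). Itgb1 and Itga5, which form the fibronectin receptor, were at 0.23 ± 0.15 and 0.37 ± 0.15 (edgeR adjusted p = 0.415 and 0.209). Itga4, Itga8 and Itga9, chains of further osteopontin, fibronectin and tenascin receptors, were at 0.41 ± 0.25, 0.08 ± 0.36 and 0.05 ± 0.15 (edgeR adjusted p = 0.368, 0.929 and 0.873). Itgb6 and Itgb8, at 0 to 13 counts, were below the filter.

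**Figure D3:**
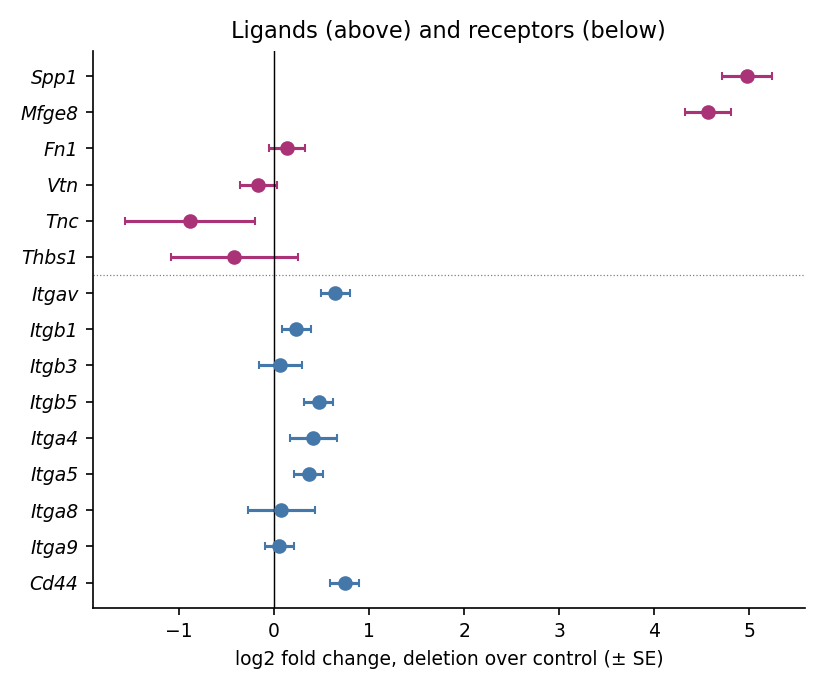
Log2 fold change, deletion over control, with bars of 1 SE, for 6 ligands (above the dotted line) and 9 receptor genes (below). Spp1 and Mfge8, which were chosen for their rise, stand at 4.98 and 4.56. The 9 receptor genes drawn lie between 0.05 and 0.74 (Cd36 at 1.48 and Sdc4 at -0.85 are not drawn). The SE bars of Fn1, Vtn and Thbs1 cross 0.

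Of 30 other secreted integrin ligands, 24 were tested, 2 rose and 2 fell (2 and 4 at an unadjusted p under 0.05), against 4.41% and 2.16% of all genes by edgeR (14.0% and 10.5% unadjusted), and the median log2 fold change was -0.22, or 0.07 with library sizes alone. Nidogen 1 (Nid1), a basement membrane linker with an RGD site, had 34.4 and 33.6 CPM in control against 171 and 280 CPM in deletion libraries, a rise of 2.73 ± 0.26 (SE, edgeR adjusted p = 0.00613). Lgals3bp, a secreted galectin-binding glycoprotein, rose by 0.97 ± 0.17 (edgeR adjusted p = 0.0284). Igfbp2, an IGF carrier with an RGD site, fell from 669 and 538 to 202 and 259 CPM (-1.39 ± 0.21, edgeR adjusted p = 0.0196), and Ecm1 fell by 0.86 ± 0.17 (edgeR adjusted p = 0.0385). Nid1 was called with any 1 library left out. Without deletion replicate 1 the calls of Lgals3bp (0.0518), Igfbp2 (0.0642) and Ecm1 (0.0754) were lost, and without deletion replicate 2 those of Lgals3bp (0.147) and Ecm1 (0.221). The list had 8 calls without control replicate 1, 5 without control replicate 2 and 2 without either deletion library.

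Mfge8 works among proteins that clear dying cells. Of 25 such genes, 21 were tested, 2 rose and 0 fell by edgeR (DESeq2 gave 3 and 0, and an unadjusted p under 0.05 gave 9 and 1), with a median log2 fold change of 0.37. Over all genes edgeR called 4.41% higher, DESeq2 6.80%, and 14.0% were higher at an unadjusted p under 0.05. Annexin A5 (Anxa5), which like Mfge8 binds phosphatidylserine, had 63.6 and 70.6 CPM in control against 332 and 474 CPM in deletion libraries and rose by 2.59 ± 0.22 (SE, edgeR adjusted p = 0.00501). Elmo1, an adaptor that activates Rac during engulfment, rose from 2.04 and 2.27 to 8.13 and 7.31 CPM (1.84 ± 0.27, edgeR adjusted p = 0.0192). Anxa5 was called with any 1 library left out, while Elmo1 was not called without deletion replicate 1 (0.0844) or 2 (0.079). The list had 4 and 7 calls without control replicates 1 and 2, and 2 and 1 without deletion replicates 1 and 2. The bridging proteins Gas6 and Pros1 and their receptors Axl and Mertk were among the 19 that did not pass. Gas6 stood at 1.12 ± 0.26 and Pros1 at 0.52 ± 0.16 on the log2 scale (edgeR adjusted p = 0.0601 and 0.12). Axl stood at 0.60 ± 0.16 and Mertk at -0.51 ± 0.14 (edgeR adjusted p = 0.0866 and 0.0957). These values do not show that the genes were unchanged.

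Downstream of integrins, 27 adhesion and signalling genes were tested, 4 rose and 0 fell by edgeR (DESeq2 gave 4 and 0, and an unadjusted p under 0.05 gave 6 and 1), with a median of 0.28; the shares of all genes higher by these 3 rules were 4.41%, 6.80% and 14.0%. The docking protein Nedd9 rose from 3.52 and 5.36 to 22.3 and 14.8 CPM (2.07 ± 0.31, edgeR adjusted p = 0.02) and the kinase Src from 6.17 and 3.16 to 15.5 and 16.7 CPM (1.78 ± 0.33, 0.0338). The focal adhesion proteins vinculin (Vcl) and zyxin (Zyx) rose by 1.07 ± 0.23 and 0.78 ± 0.14 (edgeR adjusted p = 0.0499 and 0.0328). Without deletion replicate 1 Nedd9 (0.0602), Src (0.0758) and Zyx (0.129) lost their calls, and without deletion replicate 2 Src (0.128), Vcl (0.237) and Zyx (0.137) did, which left 1 call of the list in each case.

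Among 16 proteases, inhibitors and modifying enzymes that act on osteopontin or fibronectin, 14 were tested, 4 rose and 0 fell by edgeR (DESeq2 gave 5 and 1, and an unadjusted p under 0.05 gave 7 and 1), with a median of 0.40, beside 4.41%, 6.80% and 14.0% of all genes higher by the same rules. Tgm2, the transglutaminase that cross-links both ligands, had 107 and 253 CPM in control against 734 and 607 CPM in deletion libraries (1.90 ± 0.40, edgeR adjusted p = 0.0485). The protease inhibitor Timp1 (3.60 ± 0.68), the plasminogen activator Plat (1.96 ± 0.40) and the membrane protease Mmp14 (1.13 ± 0.21) rose too (edgeR adjusted p = 0.0346, 0.0422 and 0.0348). All 4 lost their calls without deletion replicate 2 (0.11, 0.117, 0.222 and 0.139), and Tgm2, Timp1 and Plat without deletion replicate 1 (0.111, 0.124 and 0.203). Plat also lost it without control replicate 2 (0.0515). Timp1 had 8 and 1 counts in control against 74 and 60 in deletion libraries, and its log2 fold change was 5.56 without control replicate 1 and 2.84 without control replicate 2. That of Tgm2 was 1.40 and 2.65 in the same order. The list then had 0 calls without deletion replicate 2 and 2 without deletion replicate 1.

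**Figure D4:**
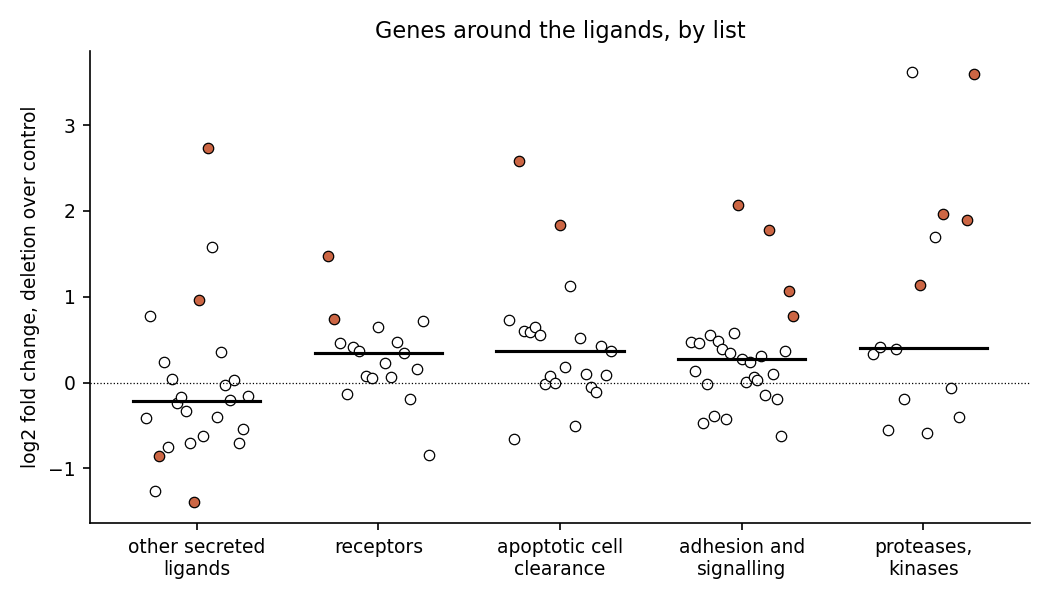
Log2 fold change, deletion over control, of each tested gene in 5 lists around the ligands; filled points are called at an adjusted p under 0.05, and bars are list medians. Medians run from -0.22 to 0.40, and 14 of the 103 points are filled higher and 2 lower. Over all tested genes edgeR called 4.41% higher and 2.16% lower.

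Markers of cell types that can make these ligands were read beside them. Over all tested genes, edgeR called 4.41% higher and 2.16% lower, and DESeq2 called 6.80% and 4.48%. An unadjusted edgeR p under 0.05 was found for 14.0% higher and 10.5% lower. The 17 cholangiocyte and ductular markers summed to 164 and 48.4 CPM in control against 178 and 217 CPM in deletion libraries. Of 15 tested, 3 rose and 0 fell by edgeR (DESeq2 gave 4 and 0, and an unadjusted p under 0.05 gave 7 and 2), and the median log2 fold change was 0.60, or 1.89 without control replicate 1. Without control replicate 1, 7 rose and 0 fell, without control replicate 2, 4 rose and 5 fell, and without either deletion library 2 rose. The defining duct keratin Krt19 had 635 and 47 counts in control against 53 and 77 in deletion libraries, and the groups of Krt7 also overlapped, while the ductal transcription factor Sox9 went from 3.89 and 3.37 to 13.2 and 12.3 CPM and the bile acid transporter Slc10a2 from 2.78 and 8.24 to 84.7 and 76.8 CPM. The part of duct cells in the Spp1 and Mfge8 values was not tested.

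For the macrophage, Kupffer cell and neutrophil lists the shares of all tested genes are again the measure. These were 4.41% higher and 2.16% lower by edgeR, and 6.80% and 4.48% by DESeq2. At an unadjusted edgeR p under 0.05 they were 14.0% and 10.5%. The 18 monocyte-derived or lipid-associated macrophage markers summed to 770 and 518 CPM in control against 1326 and 1552 CPM in deletion libraries. Of 17 tested, 8 rose and 0 fell by edgeR, with a median of 1.27. DESeq2 gave 8 and 0, and an unadjusted p under 0.05 gave 11 and 0. With a replicate block in the fit 4 rose, and with the male RNA share as a covariate 2 rose. The median was 1.336 and 1.559 without control replicates 1 and 2, and 1.212 and 1.315 without deletion replicates 1 and 2. The defining gene Trem2 had 0.617 and 0.824 CPM in control against 2.97 and 2.78 CPM in deletion libraries, and Gpnmb 0.308 and 0.275 against 1.59 and 2.63 CPM. The Gpnmb control values lay near the floor of 3 counts (0.185 and 0.206 CPM in control replicates 1 and 2), so the size of its rise is uncertain. The other called members were the oxidase subunit Cybb (12.3-fold), the tetraspanins Cd9 (9.13-fold) and Cd63 (5.62-fold), the MHC class II invariant chain Cd74 (8.38-fold), the chemokine receptor Cx3cr1 (4.01-fold) and galectin 3 (Lgals3, 2.73-fold). The sum hides these rises, because the lipid genes Lpl (292 and 98.9 CPM in control against 134 and 162 CPM) and Plin2 (261 and 171 against 243 and 349 CPM) make up much of it and were not called. The 10 Kupffer cell markers summed to 372 and 525 against 775 and 621 CPM, with 1 of 10 higher and 0 lower by edgeR (DESeq2 gave 2 and 0, and an unadjusted p under 0.05 gave 6 and 0); the list had 0 calls without control replicate 1 or either deletion library and 5 without control replicate 2. The 10 neutrophil markers summed to 2.22 and 5.70 against 10.3 and 9.06 CPM, with 0 of 3 tested genes called by edgeR (2 higher at an unadjusted p under 0.05, 0 with DESeq2), 2 called higher without control replicate 2, and Ly6g at 0 in every library. The part of these cells in the Spp1 and Mfge8 values was not tested.

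Beside the remaining lists stand the same shares of all tested genes. EdgeR called 4.41% higher and 2.16% lower, DESeq2 called 6.80% and 4.48%, and an unadjusted edgeR p under 0.05 gave 14.0% and 10.5%. The 16 stellate cell markers summed to 754 and 570 CPM in control against 603 and 608 CPM in deletion libraries. By edgeR this list had 0 higher and 1 lower (DESeq2 gave 0 and 2, and an unadjusted p under 0.05 gave 1 and 4). Without control replicate 1 it had 1 higher and 1 lower, without control replicate 2 it had 4 lower, and without either deletion library 0 calls. The 11 sinusoidal endothelial markers summed to 363 and 421 against 328 and 306 CPM, with 0 of 11 called by edgeR (2 lower at an unadjusted p under 0.05, 1 lower with DESeq2) and 1 lower without either control library. The 10 platelet markers summed to 15.7 and 18.3 against 20.1 and 20.1 CPM, with 3 tested, 0 called by edgeR (DESeq2 gave 0, and an unadjusted p under 0.05 gave 0) and Gp1bb at 0 throughout. The 12 lymphocyte markers summed to 5.92 and 8.86 against 10.4 and 6.90 CPM, with 0 of 8 called by edgeR (DESeq2 gave 0, and an unadjusted p under 0.05 gave 0). The 14 hepatocyte markers found summed to 171800 and 168900 CPM in control against 74870 and 69920 CPM in deletion libraries, with 0 higher and 4 lower of 14 by edgeR (DESeq2 gave 0 and 10, and an unadjusted p under 0.05 gave 0 and 11; 7, 6, 3 and 1 lower without control replicates 1 and 2 and deletion replicates 1 and 2). The median log2 fold change of these 14 was -0.83, and 0 of them had a positive value. Much of the sum was Alb, with 119049 and 114960 CPM in control against 45310 and 42886 CPM in deletion libraries. The defining hepatocyte markers were thus still abundant in all 4 libraries. Most had lower levels in the deletion libraries, but Alb itself was not called (edgeR adjusted p = 0.0612). Cyp3a11 overlapped between the groups, with 3326 and 2707 CPM in control against 2576 and 3146 CPM in deletion libraries. Fn1 and Vtn, which hepatocytes make too, stood at 1.10 and 0.892 times their control level.

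**Figure D5:**
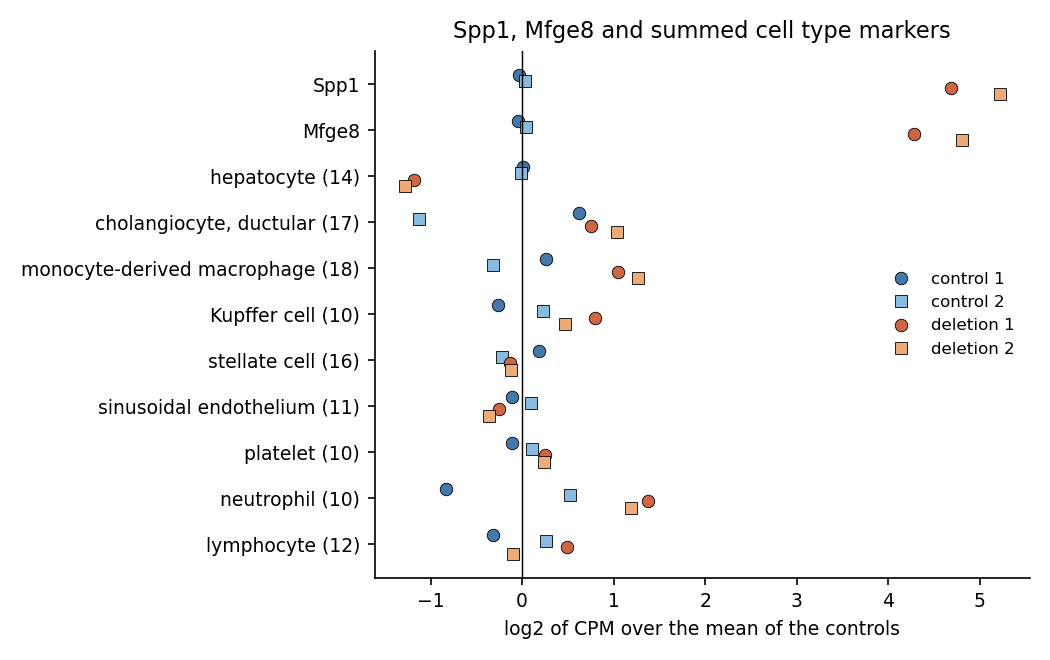
Log2 of CPM over the mean of the controls for Spp1, Mfge8 and the summed CPM of 9 marker lists, with the number of genes found in parentheses and 1 point per library. Spp1 and Mfge8, which were chosen for their rise, lie above 4 in both deletion libraries. Every marker sum lies below 2, although single markers such as Cybb (12.3-fold) and Slc10a2 (14.8-fold) lie higher. A sum follows its most abundant genes, and nothing is read from the gap between these sums and the chosen genes.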

How the data were processed

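RNA of 4 mouse liver libraries (2 control, 2 deletion) was counted per gene. Per the labels' protocols, QuantSeq 3' libraries were read as single-end 75 bp reads and aligned with Bowtie2. The authors deposited raw counts with 56953 Ensembl rows. The submitters' processing notes name mm10 and GRCm38; for the counting program, strand setting and annotation, nothing is given in the sources used here. Symbols came from GENCODE M21 by identifier (52029 rows matched). Of the listed markers, Tf matched no symbol. The table has 0 columns of other samples.

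The group comparison used the quasi-likelihood test of edgeR 4.0.16 (R 4.3.3, TMM, filterByExpr, 14600 genes, Benjamini-Hochberg over all of them, threshold 0.05); SE is the size of the log2 fold change divided by the root of F. The code was tested on simulated data. With 2 against 2 libraries the smallest exact permutation p is 0.333, so single values were not tested that way. Replicate pairs differed by more than sampling noise (chi-square per degree of freedom 38.9 and 25.3). Shares have exact Clopper-Pearson 95% intervals, for counting error only. Alternatives were other scalings, no filter, DESeq2 1.42.0, limma-voom (limma 3.58.1), robust fitting, a replicate block, a male RNA covariate and leaving out each library.

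Named genes are the 7 members, up to 6 called genes per list by absolute change, 9 receptor genes fixed by name, and the 5 nearest patterns. The rule for nearest patterns was narrowed, after the data were seen, to genes above 3 counts in each library. Sdc4, the single cell type markers and the neighbours were named after their values were seen. Members and lists were chosen with earlier results of these data known. RefSeq promoter windows matched 4 of the 7 members by symbol: Spp1, Mfge8, Vtn and Tnc.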

Additional observations from a re-analysis of the deposited data

How the results depend on the processing

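The number of genes called was 959; library sizes alone gave 1764, no filter 2768, DESeq2 1647, a replicate block 390, a male RNA covariate 65, and leaving out 1 library 343 (without deletion replicate 2) to 2081 (without control replicate 2). The Spp1 log2 fold change of 4.98 was 5.28 with library sizes alone, 5.55 with the covariate and 4.69 to 5.21 with a library left out; that of Mfge8, 4.56, was 4.86, 5.14 and 4.27 to 4.79. The covariate takes its slope mainly from the 2 deletion libraries, so it does not show what sex contributed. Fn1 kept its sign and stayed uncalled throughout. Vtn was 0.13 with library sizes alone, Tnc 0.43 with the covariate, and with a library left out Tnc ranged from -1.85 to 0.094 and Thbs1 from -1.12 to 1.04. The cause of these shifts was not tested.

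Counts of called genes in the lists also moved, and so did those of all genes. Of 14600 genes, library sizes alone called 1764, DESeq2 1647, limma-voom 914, the block 390 and the covariate 65. With no filter, 2768 of 25648 genes were called. Nothing is read from a list count that moved along with these. Other secreted ligands (4) had 8 with no filter, 1 with the block, 1 with the covariate and 2 to 8 with a library left out. Receptors (2) had 6 with library sizes alone, 5 with no filter, 5 with DESeq2, 1 with limma-voom, 1 with the block, 0 with the covariate and 1 to 4. Clearance genes (2) had 8 with library sizes alone, 8 with no filter, 1 with the block, 1 with the covariate and 1 to 7. Adhesion genes (4) had 0 with the block, 0 with the covariate and 1 to 5. Proteases and enzymes (4) had 7 with library sizes alone, 0 with the block, 0 with the covariate and 0 to 5. Of 17 named genes called, Ube2n included, 13 lost the call with the replicate block and 15 with the covariate. With a library left out Itgb3 ranged from -0.16 to 0.32, Itga8 from -0.33 to 0.65 and Itga9 from -0.041 to 0.13; Itga9 was -0.12 with the covariate.

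Same-numbered libraries share only a number, and their deviations from the group means correlated at -0.12 across genes. With the numbers crossed, a pairing added after seeing the data, 1366 genes and 5 clearance genes were called. At these depths genes under about 10 counts, such as Edil3, cannot be compared.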
